A study of Mus musculus with 158 samples.

Results

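The 5 genes described here act in carbon, lipid and redox metabolism and were targeted by 16 of the 1000 targeting hairpins of a pooled short hairpin RNA (shRNA) screen, which covered 285 genes in all. The members are all hairpins that the deposited tables assign to Aldoa, Slc16a4, Acacb, Gsto1 or Ptges3, whatever their values. Acacb was targeted by 4 hairpins and each of the other genes by 3. An shRNA is a short RNA, expressed from an integrated vector, that is processed into a small RNA and lowers the messenger RNA of the gene it matches. Because the vector is copied with the genome, the share of a hairpin among the reads of genomic DNA follows the share of cells that carry it. A lower share therefore says that fewer of the sampled cells carried the hairpin, and it does not measure the level of the targeted messenger RNA.

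Aldolase A, the product of Aldoa, splits fructose 1,6-bisphosphate in glycolysis. Slc16a4 encodes a member of the monocarboxylate transporter family, whose best known members move lactate and pyruvate across membranes together with protons. Acacb encodes acetyl-CoA carboxylase 2, which makes malonyl-CoA at the mitochondrial surface and thereby restrains the entry of fatty acids into mitochondria. Gsto1 encodes an omega-class glutathione transferase with thioltransferase and dehydroascorbate reductase activity. Ptges3 encodes p23, a co-chaperone of HSP90 that was also described as a cytosolic prostaglandin E synthase. Tumour cells of the pancreas are known for high glycolytic flux and for reliance on glutathione-dependent redox control.

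The cells were PDA530 Met, a mouse pancreatic adenocarcinoma line that the labels describe as coming from a liver metastasis. They were infected with 1 of 19 hairpin pools at a low ratio of virus to cells and selected with puromycin. Pellets were taken at day 0, cells were kept in culture until day 28, and other cells were injected into the tail vein of 3 mice per pool, with the lung tumours of each mouse combined at day 28. All arms thus carry hairpin vectors and passed the same selection, and every pool held the same 8 control hairpins. Colonies in the lung after tail-vein injection model survival and growth in that organ and not the escape from a primary tumour. The sources used here give no genotype, strain or age of the mice, and no position in the transcript for the target of a hairpin.

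Each gene's hairpins were read in the libraries of their own pool. The Aldoa hairpins were in pool 5, those of Acacb in pool 4, those of Slc16a4 in pool 7 and those of Ptges3 in pool 9. Gsto1 had 1 hairpin in pool 7 and 2 in pool 14. Values are given as CPM, the number of reads of a hairpin per 1000000 reads of the pool's own targeting hairpins, so that 10000 CPM is 1% of those reads. These 5 pools were read in 44 libraries, and the total per library was 5009971 to 9787379 reads at day 0. Culture libraries held 6314659 to 16549822 reads and lung libraries 3667268 to 8785515. Each arm of a pool had 3 libraries, except that pool 9 had 6 in culture and 2 in lungs. Each of these culture libraries held a mixture of 2 pools, so the own pool made up 28.4% to 53% of their reads, against 55.9% to 73.6% at day 0 and 54.4% to 85.6% in lungs. The culture libraries of pools 4 and 5 were the same physical libraries. In lung library A of pool 14, 50.6% of the pool's reads came from 1 hairpin against Col11a1, and in lung library C of pool 9, 22.2% came from 1 Ptges3 hairpin. Whether the day 0 replicates came from separate infections is not stated, so p-values measure the spread between these samples, which may be partly technical.

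Shares and tested changes are both given for each hairpin. The CPM shown for single libraries are plain shares. The tested change is a log2 fold change of CPM + 1 after scaling by TMM (trimmed mean of M-values), a factor per library meant to place most hairpins of the pool near 0. The median of a pool after scaling was -0.15 to -0.06 in culture against day 0 in these 5 pools. It was further from 0 in lungs against day 0 (-0.59 in pool 14, -0.54 in pool 4, -0.35 in pool 9, -0.21 in pool 5 and -0.19 in pool 7) and in lungs against culture (-0.53 in pool 14, -0.50 in pool 9, and -0.05 to 0.19 in the others). This scaling adds about the same amount to every log2 fold change of a pool. The amount was 0.20 to 1.71 for lungs against day 0 in the 5 pools (highest in pool 14, then 0.99 in pool 9), 0.47 to 0.83 for culture against day 0 and -0.23 to 0.97 for lungs against culture. A hairpin was called where limma's p, adjusted by the Benjamini-Hochberg method over the hairpins tested in every pool, was below 0.05. The 3 comparisons share libraries and are not independent of each other.

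**Figure D1:**
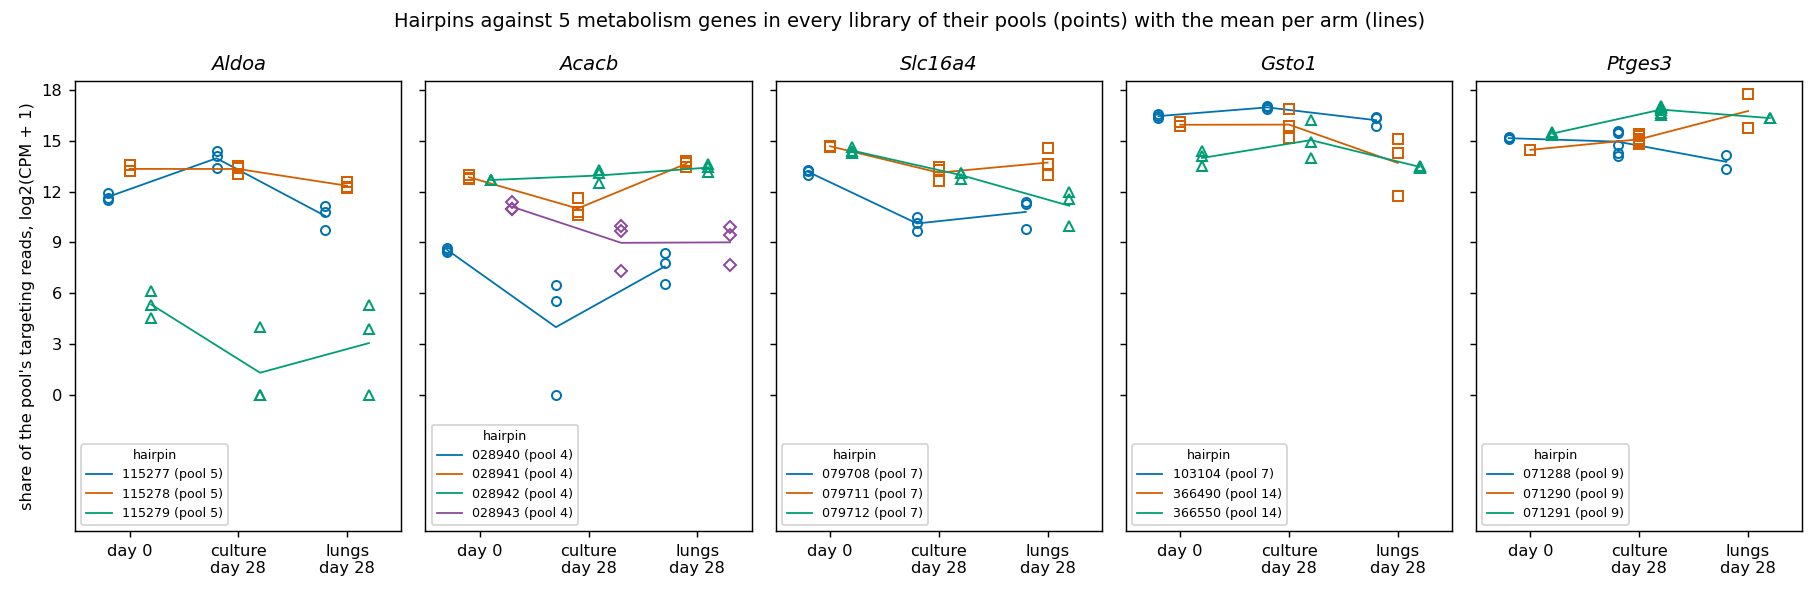
Each panel is 1 gene. The vertical axis is log2(CPM + 1) of the plain share, points are single libraries of day 0, culture and lungs, and lines join the mean of each arm for each hairpin, labelled by the last 6 digits of its identifier and its pool. Day 0 libraries of most hairpins lie close together, and lung libraries are often spread more widely, as in Slc16a4 TRCN0000079712 with 1008 to 4004 CPM in lungs and 19404 to 24740 CPM at day 0.

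All 16 hairpins passed the filter of a mean of 10 reads in each comparison. In culture against day 0, 12 of 16 were called, 7 higher and 5 lower, where 28.8% of all 945 hairpins tested were called higher and 31.9% lower. Their median log2 fold change was 0.56, against -0.10 over all hairpins tested. In lungs against day 0, 6 of 16 were called, 3 higher and 3 lower, where 14.7% of 891 hairpins were called higher and 19.1% lower. Their median was -0.49, against -0.13 over all. In lungs against culture, 7 of 16 were called, 2 higher and 5 lower, where 11.6% of 889 hairpins were called higher and 13.3% lower. Their median was -0.02, against -0.11 over all.

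The split between higher and lower depended on the scaling. With plain shares the members were split 4 higher to 7 lower in culture against day 0 and 3 to 6 in lungs against day 0, and over all hairpins the part of calls that were higher fell to 26.5% from 47.5% and to 24.4% from 43.5%. With the authors' deposited scaling these parts were 20.6% and 30.5%. With the total of the 8 control hairpins as the scale, 3 members were called higher and 8 lower in culture against day 0, with 16.1% of all calls higher. In lungs against day 0, control scaling gave 2 members higher and 2 lower, with 46.2% of all calls higher. In lungs against culture, control scaling gave 4 members higher and 1 lower, and 82.5% of all calls higher against 46.6% with TMM and 60.6% with the deposited scaling. Culture libraries of a mixture hold the controls of both pools. By construction, this pushes control-scaled values down in culture against day 0 and up in lungs against culture, for every hairpin of these pools. In pool 5, own hairpins and controls made up 58.7% and 41.1% of reads in day 0 library A. In culture library A they made up 28.4% and 34.4%. How much of the shift comes from this was not tested. Plain shares shifted the median of all hairpins by -0.60, -0.54 and -0.15 in lungs against day 0, culture against day 0 and lungs against culture.

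The count of calls moved with single replicate letters in the comparisons with lungs, and in most cases the share called over all hairpins moved in the same direction. In lungs against day 0 it was 2 without the day 0 libraries A (16.6% of all hairpins called) or C (18%) and 3 without B (17.3%), against 33.8% with all libraries. Without the lung libraries A, B or C it was 8, 8 and 7, with 43.5%, 39.4% and 42.6% of all hairpins called. In lungs against culture it was 3 without the culture libraries A (16.3%) and 4 without B (16%) or C (16.2%), against 24.9% with all libraries. Without the lung libraries A or C it fell to 6, while the share over all hairpins rose to 26.5% and 27.5%. In culture against day 0 it stayed between 10 and 13 when 1 replicate letter was left out of an arm, with 50.7% to 64% of all hairpins called.

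**Figure D2:**
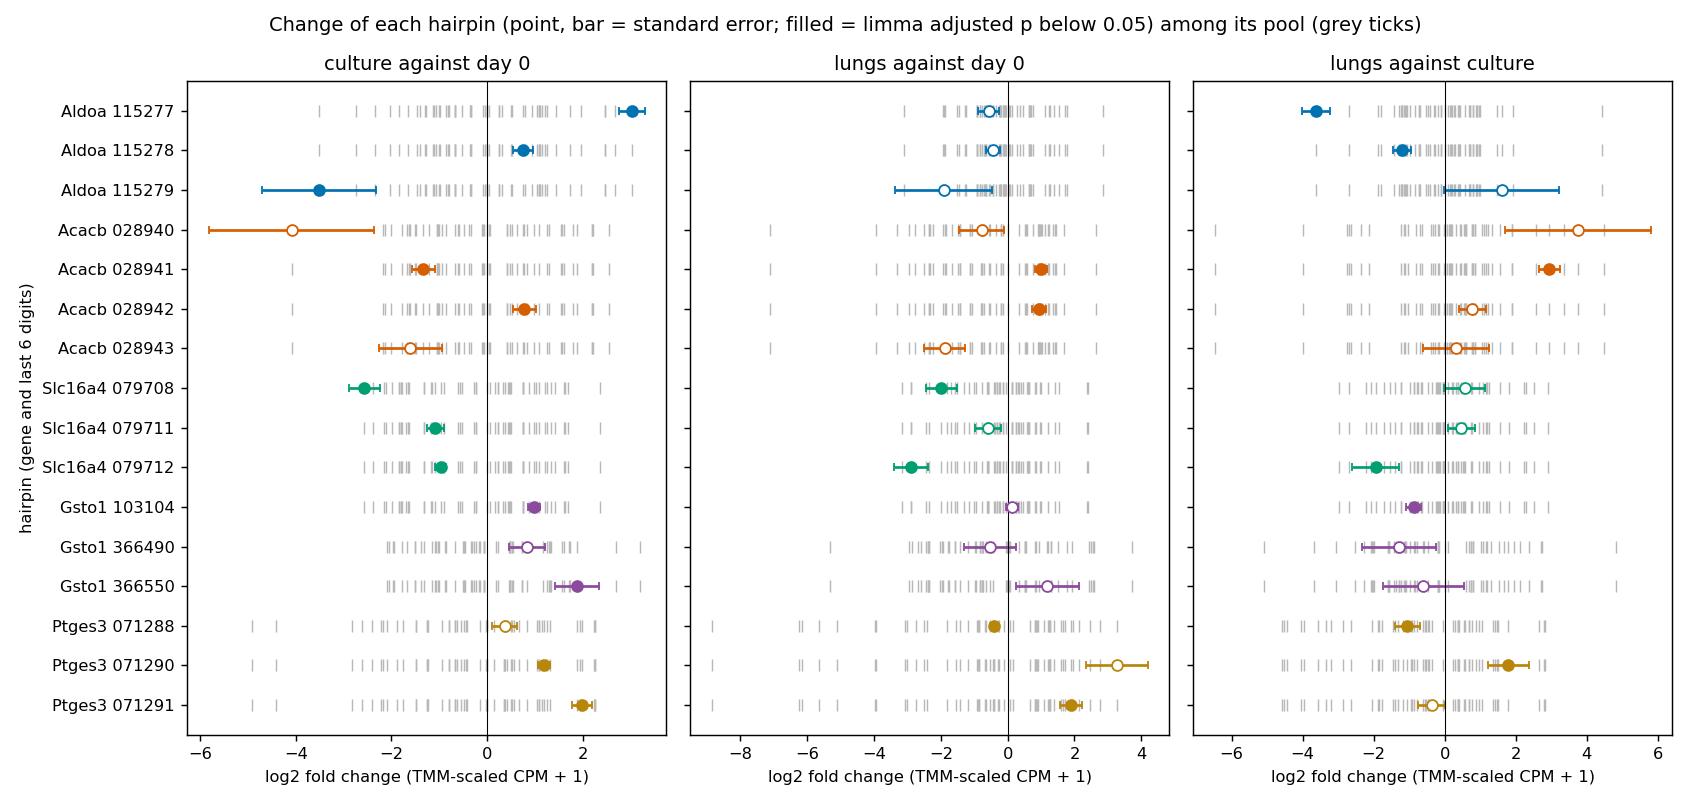
Each row is 1 hairpin, and the horizontal axes are TMM-scaled log2 fold changes in the 3 comparisons. Coloured points are the members with their standard error, filled where limma's adjusted p was below 0.05, and grey ticks are the other hairpins of the same pool. The 3 Slc16a4 hairpins lie left of 0 in both comparisons with day 0, and Aldoa TRCN0000115277 is at the right end of its pool in culture (3.03) and at the left end in lungs against culture (-3.63).

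Aldoa hairpins did not move as 1 group. In culture, 2 of the 3 were called higher than at day 0 and the rarest was called lower. In lungs 2 were called lower than in culture. Against day 0, limma called 0 of the 3 in lungs, with 0 at an unadjusted p below 0.05, 0 by edgeR and 0 by DESeq2. The RefSeq accession given for the gene is NM_007438.

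Hairpin TRCN0000115277 had 3890, 3083 and 2934 CPM in day 0 libraries A, B and C. It had 21057, 10886 and 17528 CPM in culture and 857, 2287 and 1744 CPM in lungs. Every culture library was above every day 0 library, and every lung library was below every day 0 library. The change in culture was a log2 fold change of 3.03 ± 0.27 (SE), or 8.17-fold, with a limma adjusted p of 7.35e-07, and was the highest of the 52 hairpins tested in pool 5. Lungs against culture gave -3.63 ± 0.39 (SE; limma adjusted p = 4.69e-05), or 12.4-fold lower, the lowest of the 52. Both calls were kept under each alternative that was run, at sizes that moved with the scaling. The culture value was 2.28 as a plain share, 1.62 with the authors' scaling and 1.47 with control scaling, and alternatives gave 1.47 to 3.29 in all. Lungs against culture ranged from -3.79 to -2.16, the last with control scaling. Lungs against day 0 gave -0.57 ± 0.32 (SE; limma adjusted p = 0.215), and the plain share gave -1.12 (limma adjusted p = 0.0458). A decrease relative to day 0 in the lungs was thus called from the plain share and not after TMM scaling.

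Hairpin TRCN0000115278 had 9407, 9446 and 12268 CPM at day 0, 10864, 8430 and 11777 CPM in culture and 4983, 4711 and 5915 CPM in lungs. Culture overlapped day 0, and the lung libraries were below both. Relative to the typical hairpin it was higher in culture by 0.75 ± 0.21 (SE; limma adjusted p = 0.00827), a call lost without day 0 library A or B (limma adjusted p = 0.0792 and 0.071). The plain share gave no call (-0.01, limma adjusted p = 0.985), and the direction turned with the authors' scaling (-0.66, limma adjusted p = 0.0134) and with control scaling (-0.81, limma adjusted p = 0.00376). The mixing of pools in culture pushes this control-scaled value down by construction. Lungs against culture gave -1.21 ± 0.25 (SE; limma adjusted p = 0.00452), but was not called with the authors' scaling (-0.05, limma adjusted p = 0.869) or control scaling (0.25, limma adjusted p = 0.397). Lungs against day 0 gave -0.44 (limma adjusted p = 0.131) after TMM scaling, and was called as a plain share (-0.99, limma adjusted p = 0.0088) and with the authors' scaling (-0.71, limma adjusted p = 0.0388).

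Hairpin TRCN0000115279 was rare from the start, with 22.9, 39.4 and 69.2 CPM at day 0, which were 116, 228 and 375 reads. Culture libraries A and C held 0 reads, which allow up to 1.18 and 1.30 CPM (3 reads), and culture library B held 40 reads or 15.1 CPM. Lung library A held 0 reads as well, which allow up to 0.69 CPM, and B and C held 39.2 and 14 CPM. These limits cover counting error only, since the reads come from PCR without molecular identifiers. The fitted fall in culture was -3.52 ± 1.19 (SE; limma adjusted p = 0.0207), and its size moved with the pseudocount and the scaling. It was -4.18 with a pseudocount of 0.5 and -1.52 with 10, and -4.01 as a plain share, -5.88 with the authors' scaling and -4.60 with control scaling. It was not called by edgeR (-2.31, adjusted p = 0.132), by DESeq2 (-2.23, adjusted p = 0.41) or with all arms in 1 fit (limma adjusted p = 0.0706). The call was also lost without day 0 library C (limma adjusted p = 0.127) or without culture library A or C (-2.83 each, limma adjusted p = 0.0508 and 0.0973), and the value was -5.06 without culture library B.

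All 3 Slc16a4 hairpins were called lower in culture than at day 0. In lungs, 2 of the 3 were called lower than at day 0. The RefSeq accession given for the gene is NM_146136. The 3 hairpins shared the same 9 libraries of pool 7, so they are 3 measurements within 1 set of cultures and mice.

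Hairpin TRCN0000079708 had 10005, 9293 and 8181 CPM at day 0, 1460, 1144 and 821 CPM in culture and 2434, 876 and 2649 CPM in lungs. No library of day 28 reached the range of day 0. It fell by 2.57 ± 0.32 (SE) on the log2 scale in culture, or 5.94-fold (limma adjusted p = 1.46e-04), and was the lowest of the 52 hairpins of the pool. The fall in lungs against day 0 was 3.97-fold (log2 fold change -1.99 ± 0.46, SE; limma adjusted p = 0.0073). Both calls were kept under each alternative that was run. The culture value was -3.48 with control scaling. Lungs and culture overlapped, at 0.56 ± 0.58 (SE; limma adjusted p = 0.486), and control scaling called the lungs higher (1.48, limma adjusted p = 0.0415). The mixing of pools in culture pushes control-scaled values of this comparison up by construction.

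Hairpin TRCN0000079712 had 19404, 21626 and 24740 CPM at day 0, 6702, 8832 and 8764 CPM in culture and 2969, 1008 and 4004 CPM in lungs. The 3 arms did not overlap, with lungs lowest. The change in culture was -0.97 ± 0.12 (SE; limma adjusted p = 1.80e-04). With all arms in 1 fit it had the same size and was not called (limma adjusted p = 0.117), and control scaling gave -1.89. In lungs against day 0 it fell by 2.89 ± 0.50 (SE), or 7.41-fold, with a limma adjusted p of 0.00189. This call was kept under each alternative that was run, with values from -3.25 to -2.27. Lungs were below culture, with a log2 fold change of -1.94 ± 0.66 (SE; limma adjusted p = 0.0216). That difference was no longer called without culture library A, B or C (limma adjusted p = 0.121, 0.0886 and 0.17), with the authors' scaling (limma adjusted p = 0.0536) or with control scaling (-1.01, limma adjusted p = 0.312).

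Hairpin TRCN0000079711 had 25537, 26291 and 25976 CPM at day 0, 6342, 9970 and 10939 CPM in culture and 12406, 24105 and 7914 CPM in lungs. It fell in culture by 1.08 ± 0.17 (SE) on the log2 scale (limma adjusted p = 5.46e-04), and the fall was larger with control scaling. The lungs spread over a wide range, with library B just under day 0 and library C within the range of culture. Lungs against day 0 gave -0.59 ± 0.39 (SE; limma adjusted p = 0.26), and without lung library B the value was -0.99 (limma adjusted p = 0.0208). Leaving out other replicates gave no call, with values up to -0.14. The difference of lungs from culture was 0.47 (limma adjusted p = 0.36). It was called higher with control scaling (1.39, limma adjusted p = 0.00635), which here too carries the upward push from mixing. It was also called higher without lung library C (0.88, limma adjusted p = 0.0499), and it was -0.01 without lung library B.

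Acacb hairpins differed from each other in both day 28 arms. In lungs, 2 of the 4 were called higher than at day 0 and the other 2 had negative values that did not pass the test. In culture, 1 was called higher and 1 lower. The deposited tables give no accession for this gene, and the symbol is the one used in RefSeq.

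Hairpin TRCN0000028941 had 6906, 7957 and 7203 CPM at day 0, 1745, 1586 and 3096 CPM in culture and 14113, 11346 and 12987 CPM in lungs. Culture was below day 0 and lungs above it, with no overlap among the arms. The change in culture was -1.33 ± 0.24 (SE; limma adjusted p = 0.0015) and that in lungs 0.99 ± 0.18 (SE; limma adjusted p = 0.0104). Lungs against culture gave 2.95 ± 0.29 (SE), or 7.73-fold higher (limma adjusted p = 3.57e-04), the fourth highest of 51 hairpins in pool 4. It was the 1 member of the 16 that was called lower in culture and higher in lungs, both against day 0, where 2.47% of the 891 hairpins tested in both comparisons were. The increase in lungs had limma adjusted p-values of 0.0544 and 0.0583 without day 0 library A or C, and the other calls of this hairpin were kept under each alternative that was run. Its culture value moved to -2.32 with control scaling.

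Hairpin TRCN0000028942 had 6474, 6616 and 6559 CPM at day 0, 9722, 8829 and 5698 CPM in culture and 10934, 9256 and 12673 CPM in lungs. Every lung library was above day 0, while culture library C was below it. The increase in lungs was 0.93 ± 0.21 (SE; limma adjusted p = 0.0208), and the adjusted p was 0.0726 to 0.0825 when a day 0 library was left out. The call was also lost with control scaling (0.72, limma adjusted p = 0.0541) and with the replicate letter as a block (0.93, limma adjusted p = 0.0594), and letters paired the libraries of pool 4 in both comparisons with day 0. The increase in culture, 0.78 ± 0.24 (SE; limma adjusted p = 0.022), was not called from the plain share (0.27, limma adjusted p = 0.298) and turned to -0.08 with the authors' scaling and -0.21 with control scaling. It was also lost without culture library A (0.54) or B (0.48), without day 0 library A or B (limma adjusted p = 0.0595 and 0.0688) and with all arms in 1 fit (0.69, limma adjusted p = 0.0599).

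Hairpins TRCN0000028943 and TRCN0000028940 were lower in each day 28 library than in any day 0 library as plain shares, and neither was called by limma with TMM scaling, a pseudocount of 1, all libraries and no block. With the replicate letter as a block both were called in culture, at -1.61 (limma adjusted p = 0.0308) for TRCN0000028943 and -4.09 (limma adjusted p = 0.0356) for TRCN0000028940. TRCN0000028943 had 1970 to 2628 CPM at day 0, 161, 803 and 988 CPM in culture and 204, 966 and 688 CPM in lungs. Its log2 fold changes were -1.61 ± 0.66 in culture (SE; limma adjusted p = 0.0652) and -1.89 ± 0.61 in lungs (SE; limma adjusted p = 0.0587). With the plain share these were -2.12 (limma adjusted p = 0.0237) and -2.09 (limma adjusted p = 0.0478). The culture change was called with the authors' scaling (-2.47) and control scaling (-2.59) as well, and without culture library A (-0.87, limma adjusted p = 0.0111). The lung change was called without lung library A (-1.21, limma adjusted p = 0.0419) or B (-2.35, limma adjusted p = 0.0343). TRCN0000028940 had 346 to 415 CPM at day 0, 46.3, 89.3 and 0 CPM in culture and 219, 94.8 and 338 CPM in lungs. The 0 in culture library C allows up to 1.24 CPM and gave the fitted change of -4.09 its large error (SE 1.73; limma adjusted p = 0.0712). With the plain share it was -4.55 (limma adjusted p = 0.0404), and it was also called with the authors' scaling (-5.54) and control scaling (-4.93). It was called with a pseudocount of 10 instead of 1 (-2.91, limma adjusted p = 0.0208) and without culture library B (-5.58, limma adjusted p = 0.0321) or C (-2.10, limma adjusted p = 0.0157). In lungs this hairpin gave -0.78 ± 0.67 (SE; limma adjusted p = 0.409).

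In culture, limma called 2 of the 3 Gsto1 hairpins higher relative to the typical hairpin of their pools, and edgeR called all 3. Against day 0, limma called 0 of the 3 in lungs, with 0 at an unadjusted p below 0.05 and 0 by edgeR. DESeq2 called 1, TRCN0000366550, as higher (2.68, adjusted p = 0.0171). The RefSeq accession given for the gene is NM_010362. The hairpin in pool 7 was the most abundant of that pool's 52 at day 0, and 1 of those in pool 14 was second of 54.

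Hairpin TRCN0000103104 in pool 7 had 96795, 88715 and 81312 CPM at day 0, 127971, 116757 and 135709 CPM in culture and 84436, 59774 and 83657 CPM in lungs. Its mean share at day 0 was 8.89% of the pool's targeting reads. Culture was above both other arms, and lungs overlapped day 0. The increase in culture was 0.98 ± 0.12 (SE; limma adjusted p = 1.46e-04), and the plain share rose by 0.51 (limma adjusted p = 1.97e-05). Control scaling gave 0.07 (limma adjusted p = 0.618). Lungs were lower than culture by a log2 fold change of -0.88 ± 0.21 (SE; limma adjusted p = 7.29e-04). In pool 7 limma's prior carried a median of 139.34 degrees of freedom over the pool's hairpins in this comparison. With such a prior a p rests largely on the other hairpins of the pool. The prior of this hairpin itself was not listed. Without trend and robust estimation the adjusted p was 0.0653, DESeq2 gave -0.86 (adjusted p = 0.0665), and control scaling gave 0.05 (limma adjusted p = 0.899). Without culture library A or C the call was lost as well (limma adjusted p = 0.0976 and 0.0837). The value in lungs against day 0 was 0.13 ± 0.19 (SE; limma adjusted p = 0.641), with -0.24 as a plain share.

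Hairpin TRCN0000366550 in pool 14 had 11474, 21046 and 17203 CPM at day 0, 16060, 74401 and 30953 CPM in culture and 10702, 11199 and 11671 CPM in lungs. The culture libraries differed by a wide margin, with B highest. The increase in culture was 1.88 ± 0.46 (SE; limma adjusted p = 0.0034), the third highest of 54. It was not called as a plain share (1.05, limma adjusted p = 0.0684), with the authors' scaling (0.73, limma adjusted p = 0.252), with control scaling (0.50, limma adjusted p = 0.455) or with all arms in 1 fit (limma adjusted p = 0.123). In lungs the plain share had a mean of 11190 CPM against 16574 at day 0, with overlap. Its log2 fold change was -0.52 (limma adjusted p = 0.498), while TMM scaling gave 1.19 ± 0.95 (SE; limma adjusted p = 0.359). The distance between these values is the amount of 1.71 that the scaling adds in pool 14.

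Hairpin TRCN0000366490 in pool 14 had 68924, 58730 and 59673 CPM at day 0, 117141, 36028 and 58375 CPM in culture and 3377, 19349 and 34505 CPM in lungs. Culture lay on both sides of day 0, and all lung libraries were below it. The lowest lung value was that of library A, in which the Col11a1 hairpin held 50.6% of the reads. The TMM-scaled change in culture was 0.84 ± 0.37 (SE; limma adjusted p = 0.0631). It was called by edgeR (1.00, adjusted p = 0.035), with the replicate letter as a block (0.84, limma adjusted p = 5.89e-04) and without culture library B (1.29, limma adjusted p = 8.28e-04). Its sign turned with the authors' scaling (-0.31) and control scaling (-0.54). The change in lungs was -0.54 ± 0.78 (SE; limma adjusted p = 0.625), which is 0.15 above the median of the pool's other hairpins (-0.69). The plain share in lungs gave -2.25 (limma adjusted p = 0.106). In culture library B this hairpin was lowest and TRCN0000366550 highest, and in library A the order was the other way round, so the pair of Gsto1 hairpins in pool 14 did not vary together (r = -0.11 over 9 libraries).

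**Figure D3:**
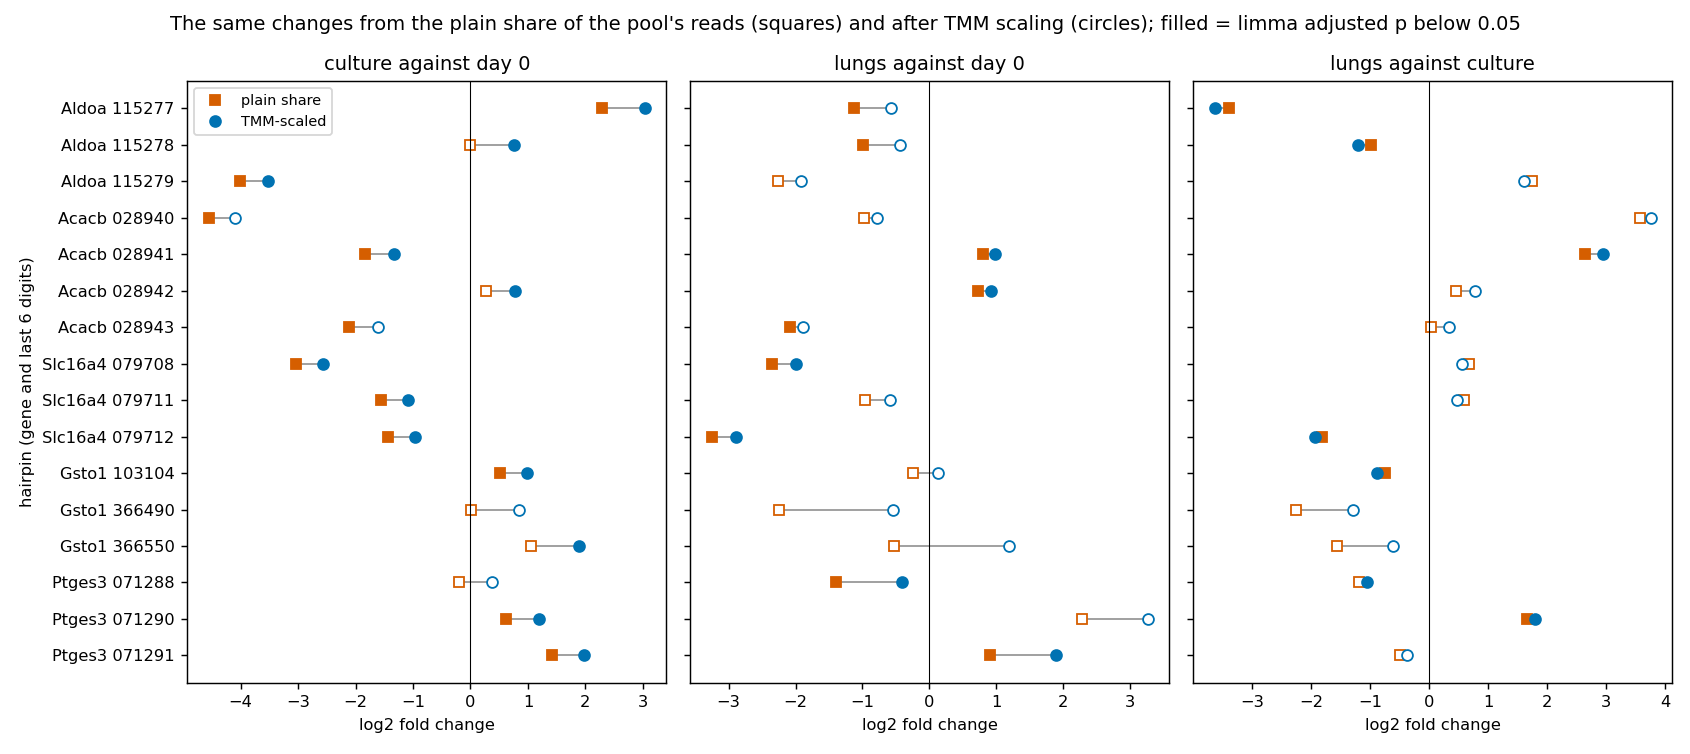
Each row is 1 hairpin. Squares are log2 fold changes of the plain share and circles those after TMM scaling, in the 3 comparisons, filled where limma's adjusted p was below 0.05. The joining lines are longest for the 2 Gsto1 hairpins of pool 14 in lungs against day 0 (-2.25 to -0.54 and -0.52 to 1.19), and Aldoa TRCN0000115278 is at -0.01 or 0.75 in culture.

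Ptges3 hairpins were abundant, and 1 of them reached the highest share of any member in a lung library. In culture 2 of the 3 were called higher than at day 0. In lungs 1 was called higher and 1 lower, and the hairpin with the largest positive value was not called. The RefSeq accession given for the gene is NM_019766. Pool 9 had 2 lung libraries, and its culture was read in a mixture with pool 8 and in a mixture with pool 10, of 3 libraries each. Whether both mixtures hold DNA of the same cultures is not stated, and the fit counts them as 6 libraries.

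Hairpin TRCN0000071291 had 43408, 45972 and 41190 CPM at day 0. In culture it had 100899, 115155 and 93127 CPM in the mixture with pool 8 and 130908, 135579 and 124653 CPM in that with pool 10, and in lungs A and C it had 82571 and 81141 CPM. All 8 libraries of day 28 were above day 0. The increase was 1.98 ± 0.21 in culture (SE; limma adjusted p = 5.26e-06), or 3.94-fold, and 1.90 ± 0.32 in lungs (SE; limma adjusted p = 0.0164), or 3.73-fold. As plain shares these were 1.41 and 0.91, both called, and control scaling gave 1.08 in culture. The culture call was kept under each alternative, and the lung call was lost when any 1 of the day 0 libraries was left out (limma adjusted p = 0.0754 to 0.0772). Lungs against culture gave -0.37 ± 0.38 (SE; limma adjusted p = 0.493) and was called lower with the authors' scaling (-1.05, limma adjusted p = 0.03).

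Hairpin TRCN0000071290 had 22561, 22280 and 22278 CPM at day 0. In culture it had 43013, 39141 and 33432 CPM in the mixture with pool 8 and 34509, 28330 and 30402 CPM in that with pool 10. In lungs A and C it had 53805 and 221764 CPM, so that it was the most abundant hairpin of pool 9 in lung library C. The increase in culture was 1.19 ± 0.12 (SE; limma adjusted p = 3.34e-06). It was 0.62 as a plain share and 0.29 with control scaling, both called. Lungs against day 0 gave 3.27 ± 0.92, the highest of 52, and was not called (SE; limma adjusted p = 0.0573), while edgeR (3.92, adjusted p = 0.04), DESeq2 (3.95, adjusted p = 2.48e-04) and limma with all arms in 1 fit (3.07, adjusted p = 0.00127) called it. It was 1.75 without lung library C and 4.74 without A, both called, where the lone lung library is assumed to vary like day 0. Lungs against culture gave 1.79 ± 0.57 (SE; limma adjusted p = 0.043), and without lung library C it was 0.50 (limma adjusted p = 0.103). That call was also lost without culture libraries A, B or C (limma adjusted p = 0.118, 0.0916 and 0.125), with the mixtures summed by letter (1.71, limma adjusted p = 0.207), with the authors' scaling (1.12, limma adjusted p = 0.0669), with either mixture alone (limma adjusted p = 0.125 for each) and without trend and robust estimation (limma adjusted p = 0.0885).

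Hairpin TRCN0000071288 had 36346, 37234 and 34607 CPM at day 0. In culture it had 46279, 45347 and 48071 CPM in the mixture with pool 8, and 27040, 19908 and 17360 CPM in that with pool 10. Lungs A and C had 18355 and 10284 CPM. The mixture with pool 8 was thus above day 0 and the mixture with pool 10 below it. Over both, culture against day 0 gave 0.37 ± 0.26 (SE; limma adjusted p = 0.236), and with the mixtures summed by letter 0.54 (limma adjusted p = 1.37e-04). The mixture with pool 10, sequenced in the lane of the day 0 libraries, gave -0.06 (limma adjusted p = 0.762) after TMM scaling, and that with pool 8 gave 0.68 (limma adjusted p = 2.55e-06). Lungs were lower than day 0 by a log2 fold change of -0.41 ± 0.11 (SE; limma adjusted p = 0.0463), which is also the median change of the pool's other hairpins (-0.41), and the plain share gave -1.39 (limma adjusted p = 0.0236). Leaving out 1 day 0 library gave limma adjusted p-values of 0.116 to 0.264. The call was also lost with control scaling (-1.23, limma adjusted p = 0.054), all arms in 1 fit (-0.61, limma adjusted p = 0.179), DESeq2's size factors (limma adjusted p = 0.0785) and without trend and robust estimation (limma adjusted p = 0.103). Lungs against culture gave -1.06 ± 0.35 (SE; limma adjusted p = 0.0484). It was -0.91 without lung library C (limma adjusted p = 0.13). It was -0.63 against the mixture with pool 10 alone (limma adjusted p = 0.135). The call was lost as well as a plain share (-1.19, limma adjusted p = 0.0789), with control scaling (-0.70, limma adjusted p = 0.222), by DESeq2 (-0.94, adjusted p = 0.064), without lung library A (limma adjusted p = 0.115) and without culture libraries A or B (limma adjusted p = 0.154 and 0.114).

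The mixtures themselves were compared for pools 9 and 10, a test added after the values were seen. Of 103 hairpins, 13 (12.6%) differed between mixtures by limma's adjusted p. In pool 9 these were 10 of 52, and 2 of the 10 were Ptges3 hairpins. TRCN0000071288 was lower in the mixture with pool 10 (-0.87 ± 0.15, SE; limma adjusted p = 2.08e-05) and TRCN0000071291 was higher there (0.62 ± 0.12, SE; limma adjusted p = 8.22e-05). TRCN0000071290 gave -0.03 (limma adjusted p = 0.902). A hairpin against Alms1 held 23% to 25.7% of pool 9's reads in the mixture with pool 10, and its part in the differences was not tested. The mixtures differ in partner pool and sequencing lane, which cannot be told apart.

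**Figure D4:**
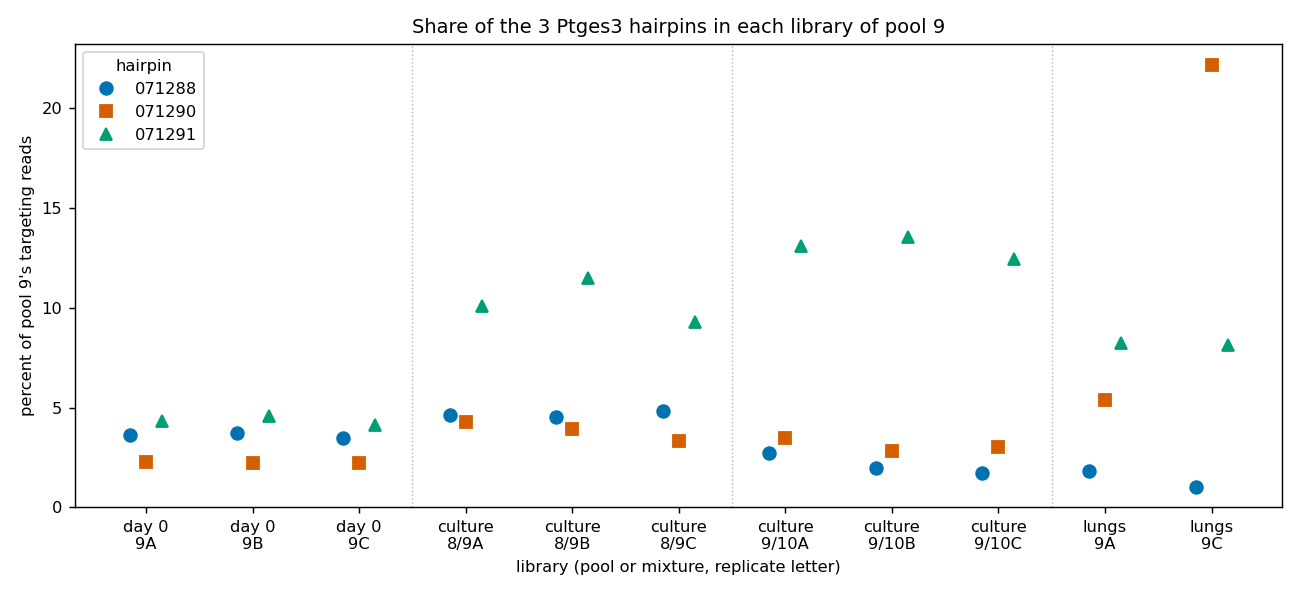
The vertical axis is the percent of pool 9's targeting reads, and the horizontal axis lists the 11 libraries of the pool, with dotted lines between day 0, the 2 culture mixtures and the lungs. TRCN0000071290 stands at 22.2% in lung library C, and TRCN0000071288 is above its day 0 share in the mixture with pool 8 and below it in the mixture with pool 10.

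Set side by side against day 0, 2 of the 16 hairpins were called higher in both culture and lungs (Acacb TRCN0000028942 and Ptges3 TRCN0000071291) and 2 were called lower in both (Slc16a4 TRCN0000079708 and TRCN0000079712). Another 5 were called higher in culture and not called in lungs, of Aldoa, Gsto1 and Ptges3. Of the 891 hairpins tested in both comparisons, 7.86% were called higher in both, 12.7% lower in both and 19.6% higher in culture and not called in lungs. Both arms are compared with the same day 0 libraries.

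Hairpins of 1 gene varied together to a different degree over the libraries of their pool. The Pearson correlation of log2(CPM + 1) between hairpins of the same gene was highest for Aldoa TRCN0000115277 and TRCN0000115278 (r = 0.88) and lowest for Acacb TRCN0000028942 and TRCN0000028943 (r = -0.72). It was 0.04 to 0.63 among Slc16a4 hairpins and -0.36 to 0.60 among Ptges3 hairpins. These values are over 9 libraries, or 11 in pool 9, that the hairpins share.

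For each member, the hairpin against another gene that followed it most closely in the same libraries was found. Those for Aldoa targeted Ctnna2 (r = 0.97), Vcan (r = 0.90) and Prkdc (r = 0.83). Those for Slc16a4 targeted Naip1 (r = 0.93), St6gal2 (r = 0.92) and Cxcl5 (r = 0.87). Those for Acacb targeted Adam8 (r = 0.95), Ehd1 (r = 0.79), Egfr (r = 0.79) and Dpp6 (r = 0.58). Those for Gsto1 targeted Naip1 (r = 0.97), Calu (r = 0.96) and Egfr (r = 0.69), and those for Ptges3 targeted Slc37a2 (r = 0.93), Vgll4 (r = 0.92) and Cxcl3 (r = 0.85). Each is the best of 47 to 52 candidates over 9 to 11 libraries, so the values are a description of likeness only.

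Other genes of carbon, lipid, nucleotide and redox metabolism were taken from a list of 269 genes, of which 8 more were targeted, by 28 hairpins. Of these, 3 were called higher and 5 lower in lungs against day 0, or 28.6% of the 28 where 33.8% of all hairpins were called. Their median log2 fold change was -0.48, against -0.49 for the members and -0.13 over all hairpins tested. The lowest adjusted p was that of a hairpin against Pxdn, a peroxidase of the extracellular matrix (-3.45, limma adjusted p = 1.38e-04), and another Pxdn hairpin in a different pool was higher (1.98, limma adjusted p = 0.00231). The glucose transporter Slc2a3 had a hairpin lower by 2.37 (log2 fold change -2.37, limma adjusted p = 0.00624). Slc16a3, the monocarboxylate transporter of the same family as Slc16a4, had 1 higher (1.82, limma adjusted p = 0.0407). Its other hairpins, at 0.34, -1.95 and -2.35, were not called (limma adjusted p = 0.193, 0.0609 and 0.237). Further calls were for Upp1 (1.20), Nt5e (-1.88 and -2.33) and Rrm1 (-2.16).

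In culture against day 0, 7 of the 28 were called higher and 11 lower, or 64.3% where 60.6% of all hairpins were called. Their median was -0.52, against 0.56 for the members and -0.10 over all. The genes with the lowest adjusted p had hairpins called in both directions. Nt5e, the ecto-nucleotidase that makes adenosine, had 1 higher (2.59, limma adjusted p = 1.35e-15) and 2 lower (-1.42 and -2.65). Pxdn had 2 lower (-1.58, limma adjusted p = 2.26e-07, and -2.75) and 1 higher (0.87). The uridine phosphorylase Upp1 had 1 lower (-1.75, limma adjusted p = 1.87e-05) and 1 higher (1.09). Rrm1, a subunit of ribonucleotide reductase, had -0.76, -0.86 and 0.89, and Slc2a3 had 0.75 and -1.63, all called. In lungs against culture, 4 were called higher and 5 lower, or 32.1% where 24.9% of all hairpins were called, with a median of -0.32. Among them were hairpins against Upp1 (2.66, limma adjusted p = 5.83e-05), Nt5e (-2.38), Pxdn (1.99 and -1.73), Cad (1.49) and Rrm1 (-1.16). Some of these hairpins were in pools without a member. The difference between these medians and those of the members was not tested.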

How the data were processed

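The deposited tables give, per hairpin and sample, a normalised signal made by the authors from reads of genomic DNA. The submitters' processing notes name BWA 0.5.9; the sources used here do not say how reads were counted and scaled. All values of a library were whole multiples of the smallest (27241 of 27241, tolerance 0.01 reads), so reads were recovered, and a hairpin without a value was taken as 0 reads. Technical repeats were summed. Of 158 samples, 10 held no values, none of them in the 5 pools used.

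Reads of a pool's targeting hairpins were turned into CPM with TMM factors of edgeR 4.0.16 over the 2 arms compared. Because the unit was a scaled signal, limma 3.58.1 (R 4.3.3; trend, robust) was fitted per pool on log2(CPM + 1), where a larger pseudocount gives smaller changes of rare hairpins and a library at 0 reads can give larger ones than edgeR or DESeq2, for hairpins with a mean of 10 reads or more. p-values were adjusted over all hairpins of all pools. Tests on the recovered reads used edgeR and DESeq2 1.42.0 as alternatives: they called 279 and 386 hairpins in lungs against day 0, where limma called 301. Other alternatives were scaling, pseudocount (0.5, 10), read filter, arms in the fit, variance prior, replicate block, culture mixtures and leaving out replicates. The steps were tested on simulated data.

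Replicate letters are shared between arms without a stated meaning. By the correlation of deviations from the arm means, every same-letter pair was above 0.1 in pools 4 (0.13 to 0.36) and 7 (0.19 to 0.51) for both comparisons with day 0 and in pool 5 (0.11 to 0.44) for lungs against culture, so letters were taken to pair those libraries, from the data and not from the labels.

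The members and gene lists were chosen with earlier results of these data known. The text names all members, for each the most alike hairpin of another gene in its pool, and, of a list of metabolism genes, at most 6 with a call per comparison in order of adjusted p. An item that this rule names is not reported here. RefSeq symbols (GRCm38.p6) matched the 4 accessions given. No hairpin sequence is in the files used here.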

Additional observations from a re-analysis of the deposited data

Results flagged for a closer look

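Of the Ptges3 hairpins in culture, TRCN0000071288 and TRCN0000071291 differed between the libraries of the mixture with pool 10 and those of the mixture with pool 8, by -0.87 and 0.62 on the log2 scale. Each was called by limma. A check of the 6 libraries for a single outlying value flagged none. It took both mixtures together, so a difference between them widens the range and makes such a flag unlikely.

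Reads of members also appeared in libraries of pools to which they were not assigned. The highest level was 252 reads per 1000000 reads of the library for Acacb TRCN0000028942 in lung library B of pool 2. It was 50.5 for Aldoa TRCN0000115277 in a lung library of pool 16 and 516 for Gsto1 TRCN0000103104 in lung library A of pool 6, where it rested on 30 of 58189 reads. It was 443 for Ptges3 TRCN0000071291 in a culture library of pools 10 and 11 and 395 for Slc16a4 TRCN0000079711 in day 0 library A of pool 8. No comparison used these reads.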

How the results depend on the processing

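Of 25 called changes of single hairpins, 10 kept direction and call under each alternative run for them, and 21 kept their direction. Of 1311 values under alternatives, 1173 kept direction and side of the threshold, 73 lost the call, 37 gained one and 28 changed sign. Unless stated, the cause was not tested. Some alternatives leave a member's pool as it was and can move its call only through the adjustment over all pools. They leave out letters that the pool lacks, such as D and E, or a lung library of another pool, or change culture mixtures outside pool 9. They count in these totals and wherever a call is said to be kept under each alternative. The counts of calls were 6, 12 and 7 for lungs against day 0, culture against day 0 and lungs against culture. Leaving out 1 replicate letter of an arm gave 2 to 8, 10 to 13 and 3 to 7, with 16.6% to 43.5%, 50.7% to 64% and 16% to 28% of all hairpins called. Without trend and robust estimation the last was 4. With all arms in 1 fit the counts were 6, 8 and 7, and 40%, 38.5% and 35% of all hairpins were called. With the replicate block the counts were 4, 15 and 5, and 25.9%, 60.8% and 21.6% of all hairpins were called, against 33.8%, 60.6% and 24.9% without it. Where letters were taken to pair the libraries the block changed the calls of 3 Acacb hairpins and no other. Elsewhere it is not known whether letters pair libraries. In all, 7 of 14, 9 of 15 and 7 of 14 same-letter pairs correlated above 0.1. In pool 14 the correlations for culture against day 0 were 0.67 for A, 0.71 for B and -0.12 for C. Where the letter left out leaves 1 lung library in pool 9, that library is assumed to vary like day 0 or culture.

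In lungs against day 0, signs changed for Gsto1 TRCN0000103104 and TRCN0000366550 with plain shares (-0.24, -0.52) and the deposited scaling (-0.05, -0.12), and for TRCN0000366490 with DESeq2 size factors (0.09) and DESeq2 (0.11). In culture against day 0 they changed with plain shares for Ptges3 TRCN0000071288 (-0.20) and Aldoa TRCN0000115278 (-0.01), with the deposited scaling for Acacb TRCN0000028942 (-0.08), Aldoa TRCN0000115278 (-0.66) and Gsto1 TRCN0000366490 (-0.31), and with control scaling for these 3 (-0.21, -0.81, -0.54) and Ptges3 TRCN0000071288 (-0.53), which also gave -0.06 with culture from the lane of day 0. In lungs against culture they changed with control scaling for Gsto1 TRCN0000103104 (0.05) and Aldoa TRCN0000115278 (0.25), with DESeq2 for Acacb TRCN0000028943 (-0.04) and Gsto1 TRCN0000366550 (0.65), and for Acacb TRCN0000028943 with all arms in 1 fit (-0.19) or TMM over 3 arms (-0.19, added later). Leaving out a replicate gave -0.77 to 0.71 for that hairpin, -0.63 to 0.04 for Ptges3 TRCN0000071291 and -0.01 to 0.88 for Slc16a4 TRCN0000079711, and culture from the other lane, added later, gave 0.03 for TRCN0000071291. Depth limits Aldoa TRCN0000115279 most, which had at most 375 reads in a library.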
